A study of Mus musculus with 9 samples.

Results

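The transcripts of 9 nuclear receptor genes were examined in mouse liver: Nr1i3, which encodes the constitutive androstane receptor CAR, its dimer partners Rxra and Rxrb, and Pparg, Ppard, Nr1h2, Nr5a2, Esrra and Esr1. They were chosen by name, with earlier results of these libraries known. Every entry of the gene table bearing one of these names was taken. The rule matched 15 of 52151 entries. Of these, 9 held known transcripts, 1 for each gene, among 26350 known and named entries. The other 6 held only transcripts assembled from these libraries and are given last.

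The study fed mice for 5 weeks and sequenced liver RNA of 3 groups, with 3 libraries in each. The PF group was pair-fed an isocaloric control liquid diet and the AF group was fed the Lieber-DeCarli alcohol diet. The AF with MNA group was fed the alcohol diet and received 50 mg/kg of MNA daily into the peritoneum; the labels do not spell out MNA. All mice were labelled as 8 weeks old. The methods describe the PF and AF groups only, as male C57BL/6J mice, 6 per group, that were fasted for 12 h before tissue was taken, and do not cover the AF with MNA group. The strain was given as C57BL/6 for PF and AF, while the MNA libraries were labelled C57BL/7, C57BL/8 and C57BL/9 in turn. These labels count up by 1 with the replicate number, and the strain of the MNA mice was not settled by the sources used here. The methods name no pooling, and nothing in the labels ties a library to a single animal, so that a p-value measures the spread between these libraries. Levels were given in FPKM, fragments scaled to transcript length and to the fragments of the library, which puts genes of different length on one scale.

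Nuclear receptors are transcription factors that bind DNA through a pair of zinc fingers, and most of them respond to small lipophilic ligands. In hepatocytes CAR is held in the cytosol by a chaperone complex until a drug or toxicant releases it, and it then enters the nucleus, pairs with RXR and turns on genes of drug metabolism. PPAR and LXR receptors also pair with RXR, whereas LRH-1, the ERR receptors and estrogen receptors bind DNA without it. Because CAR is controlled mainly by its location and by phosphorylation, the amount of its transcript is one layer of its activity among several.

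The coding stretch of the DNA-reading helix of the first zinc finger is shown for each gene, because it is the part by which these receptors tell half-sites apart. The capitals mark the 3 codons at the positions known to discriminate between half-sites, and each run is 24 bases of the coding strand from the mouse build GRCm38 as annotated in GENCODE M21.
Nr1i3: tgtGAGGGCtgcaagGGCttcttc
Rxra: tgtGAGGGCtgcaagGGCttcttc
Rxrb: tgcGAGGGCtgcaagGGTttcttc
Pparg: tgtGAAGGAtgcaagGGTtttttc
Ppard: tgcGAGGGGtgcaagGGCttcttc
Nr1h2: tgtGAAGGCtgcaaaGGCttcttc
Nr5a2: tgcGAAAGCtgcaagGGTtttttt
Esrra: tgtGAGGCCtgcaaaGCCttcttc
Esr1: tgcGAAGGCtgcaagGCTttcttt
The runs of Nr1i3 and Rxra were the same in all 24 bases. Over the 75 bases from the start of the first finger to the end of this stretch, the closest pair was Rxra and Rxrb with 65 identical bases. The median over all pairs was 51, and the least alike pair was Rxra and Nr5a2 with 45. The stretch lay in exon 2 of Nr1i3 (chr1:171214460-171214483, plus strand), in exon 4 of Esr1 (chr10:4746768-4746791, plus strand) and in exon 4 of Rxra (chr2:27741787-27741810, plus strand). In Pparg, Ppard and Nr5a2 it was split by an intron.

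The 250 bases before the RefSeq start of Nr1i3 (chr1:171213720-171213969, GRCm38.p6, plus strand) are shown because Nr1i3 varied most among the 9 genes.
Nr1i3 promoter: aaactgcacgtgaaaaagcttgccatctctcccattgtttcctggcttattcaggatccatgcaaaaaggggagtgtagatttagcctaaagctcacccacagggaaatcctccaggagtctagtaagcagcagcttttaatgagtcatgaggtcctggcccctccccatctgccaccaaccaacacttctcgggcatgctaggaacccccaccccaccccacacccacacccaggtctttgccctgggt
The nuclear receptor half-site AGGTCA, searched on both strands, was not among these letters, so nothing is in capitals. Windows of the 9 genes held it in 4 of 15 cases (26.7%), belonging to Rxra, Pparg and Nr5a2, beside 14.0% of 32851 windows of the same length over all genes. Neither AGGTCANAGGTCA nor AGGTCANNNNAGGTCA, which contain the half-site, was found in the 15 windows, and they occurred in 0.0335% and 0.0152% of all windows.

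Rxra was the most abundant of the 9 transcripts, with a mean of 25.2 FPKM over the 9 libraries, and Nr1i3 followed with 23.5 FPKM. Rxra was higher than Nr1i3 in 6 of 9 libraries and their ranges overlapped. The order of the means turned with the group, with Rxra ahead in PF (26.8 against 13.2 FPKM) and Nr1i3 ahead in AF (27.0 against 23.5 FPKM) and in AF with MNA (30.4 against 25.1 FPKM), so that this pair had no firm order. Esrra (8.65 FPKM) and Nr1h2 (6.34 FPKM) came next, and their ranges did not overlap with each other. Nr5a2 (4.17 FPKM) was higher than Rxrb (4.07 FPKM) in 7 of 9 libraries. Esr1 (2.03 FPKM) was likewise higher than Pparg (1.61 FPKM) in 7 of 9, and Ppard was lowest with 1.12 FPKM. Of 49 nuclear receptor genes looked up by name, 43 were found (the other 6 were not analysed here) and 30 had a mean of at least 1 FPKM; only Hnf4a, the receptor that maintains hepatocyte identity, exceeded Rxra and Nr1i3, with 52.7 FPKM.

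**Figure D1:**
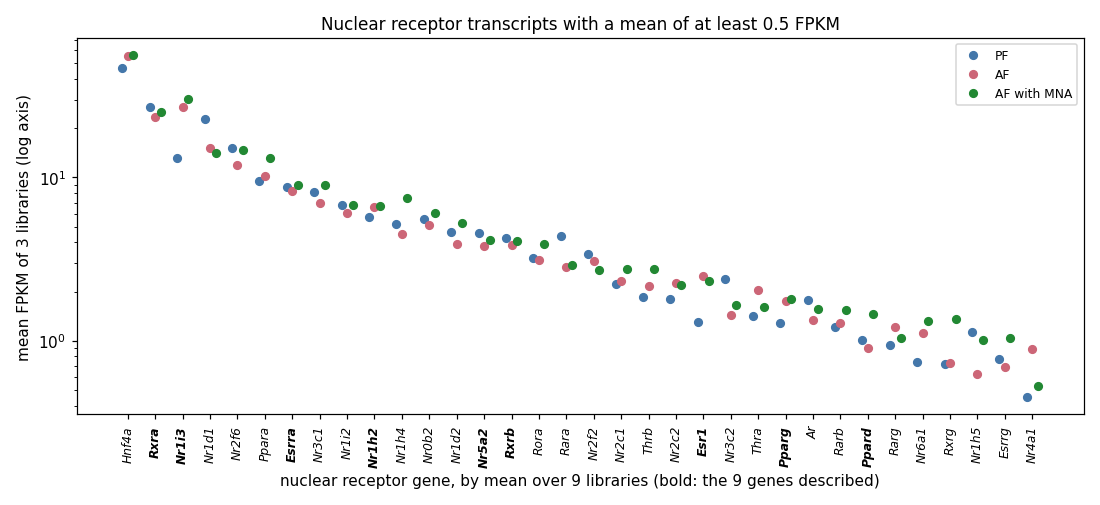
Mean FPKM of each group (3 libraries, log axis) for nuclear receptor genes above a mean of 0.5 FPKM, ordered by the mean over 9 libraries, with the 9 genes described in bold. Rxra and then Nr1i3 follow Hnf4a, and the PF mean of Nr1i3 lies below its other means.

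The tissue label was met by the hepatocyte markers (Alb, Apoa1, Ttr, Hnf4a, Tat and Cps1), none of which was at 0 in a library and which summed to between 13840 and 20744 FPKM. The recovered sequencing depth ranged from 57800660 to 82179248 reads, without a count for any gene. AF replicate 3 and AF with MNA replicate 1 stood apart in the summed FPKM of transcripts assembled inside introns, with 9433 and 8934 against 2477 to 4937 in the other libraries. The summed markers of liver endothelial cells (6 of 6 found, none at 0) were 24.02 to 28.46 FPKM in PF, 28.9 to 40.2 in AF and 34.4 to 39.2 in AF with MNA. In bulk liver, fewer cells of a type and less RNA per cell cannot be told apart.

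Each comparison was tested with limma on log2(FPKM + 1) over all known entries with a mean of at least 0.5 FPKM, which kept all 9 genes. A gene was called when its adjusted p (Benjamini-Hochberg over all tested genes) was under 0.05. A looser threshold, called here that of the methods, took over the limits that the methods give for lncRNAs tested with Ballgown. It was applied to genes as an unadjusted limma p under 0.05 together with group mean FPKMs whose log2 ratio is above 1 or below -1. The first comparison asks what alcohol feeding changes, the second what MNA changes under alcohol, and the third sets MNA under alcohol against the control diet. The 3 comparisons share libraries with each other, so their values are given side by side and are not independent.

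None of the 9 receptors was called in any comparison by limma's adjusted p. In the AF group as compared to the PF group, 0 of 9 were called beside 0.326% of 12273 genes tested, and 0 passed the threshold of the methods beside 4.29%. An unadjusted p under 0.05 was reached by 1 of 9, Esr1, beside 11.7% of all genes, and 2 of 9 (Esr1 and Pparg) did not overlap between the groups beside 18.3%. Their median log2 ratio was -0.07, beside -0.03 for all genes tested, with 4 higher and 5 lower in AF.

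None of the 9 was called in AF with MNA as compared to AF, that is 0 of 9 (0.0491% of 12219 genes), 0 passed the threshold of the methods (1.98%), 0 had an unadjusted p under 0.05 (5.21%) and 0 were without overlap (10.1%). The median log2 ratio was 0.09 beside 0.01, and 8 of 9 were higher with MNA. With 1 library left out, only Ppard and Esrra kept the sign of their log2 ratio throughout. The share of all genes higher with MNA was not counted. As compared to PF, AF with MNA gave 0 of 9 called (0.423% of 12281 genes). Nr1i3 passed the threshold of the methods (1 of 9 beside 3.88%), and Nr1i3, Esr1 and Pparg had an unadjusted p under 0.05 (3 of 9 beside 14.5%). The same 3 did not overlap between the groups (3 of 9 beside 21.4%), and the median log2 ratio was 0.21 beside -0.02. With 9 genes these shares move by a whole gene at a time, and the smallest p that an exact permutation of 3 against 3 libraries can give is 0.1.

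**Figure D2:**
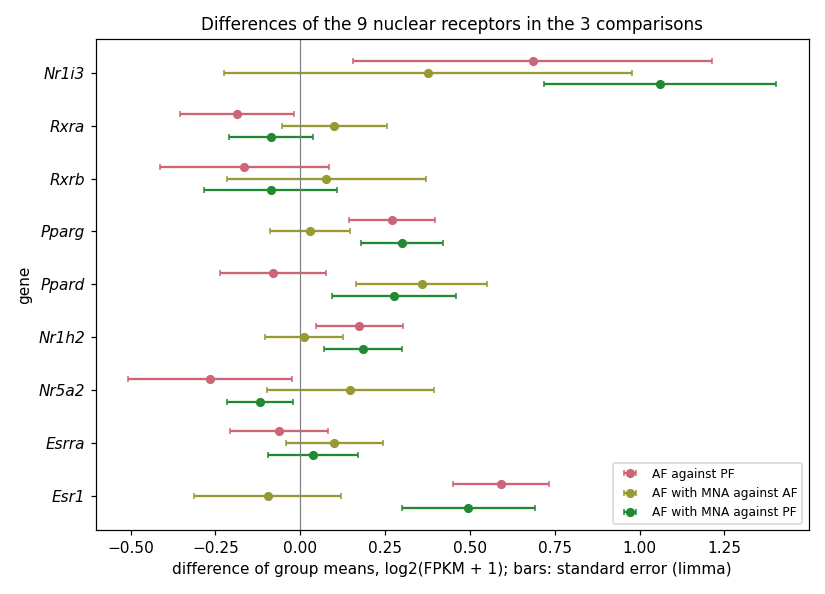
Difference of the group means on the log2(FPKM + 1) scale with its standard error (limma, 3 libraries per group) for the 9 receptors in the 3 comparisons. The bar of Nr1i3 is the longest in each comparison, and Esr1 and Pparg lie to the right of 0 in both comparisons with PF.

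Nr1i3 encodes CAR, the sensor that induces cytochromes of the CYP2B, CYP2C and CYP2A families. Nr1i3 measured 11.31, 16.02 and 12.12 FPKM in PF, 14.18, 12.66 and 54.10 FPKM in AF, and 25.79, 47.22 and 18.31 FPKM in AF with MNA. A pair of AF libraries lay inside the PF range and AF replicate 3 was the highest of the 9, while every AF with MNA library was above every PF library. The mean was 13.2 ± 2.52 (SD, n = 3) in PF, 27.0 ± 23.5 (SD, n = 3) in AF and 30.4 ± 15.0 (SD, n = 3) in AF with MNA.

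In AF against PF the log2 ratio of the Nr1i3 means was 1.04, and the limma difference on the log2(FPKM + 1) scale was 0.69 with a standard error of 0.53 (adjusted p = 0.666). AF replicate 3 decided that value, since the log2 ratio without it was 0.03, and the same library had the highest intron signal; the part of that signal was not tested. Against PF, the AF with MNA group had a log2 ratio of 1.21 and a limma difference of 1.06 with a standard error of 0.34, with an unadjusted p of 0.0202 and an adjusted p of 0.273. Without AF with MNA replicate 2 the log2 ratio was 0.75 and no longer passed the threshold of the methods. Without PF replicate 1 or 3 it stayed above 1, but the unadjusted p was 0.0620 and 0.0566. Against AF, the AF with MNA group had a log2 ratio of 0.17 (adjusted p = 0.989). With 1 library left out this ranged from -0.29 to 1.18. The highest value came without AF replicate 3, with an unadjusted p of 0.0463 and an adjusted p of 0.664. The highest Nr1i3 library was 4.78-fold above the lowest, the widest range of the 9 genes.

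**Figure D3:**
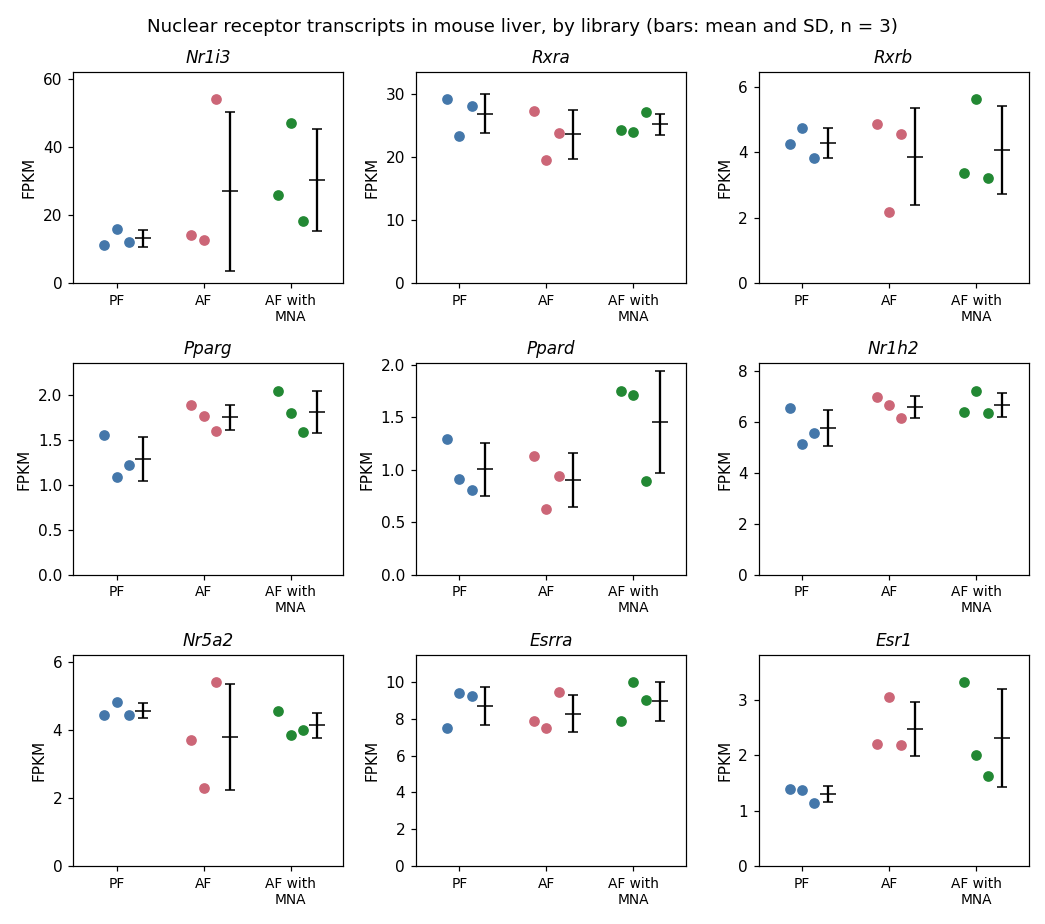
FPKM of the 9 receptor transcripts in each library (points, replicates 1 to 3 from left to right in each group), with the mean and SD of 3 libraries beside them; each panel has its own axis from 0. The wide AF bar of Nr1i3 comes from 1 library at 54.10 FPKM, and the PF points of Esr1 lie below all others.

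The Nr1i3 gene (chr1:171213970-171220701, plus strand) shares 4691 of its 6732 bases with Tomm40l on the other strand, which encodes a mitochondrial import protein. The Nr1i3 entry joined 8 known with 10 assembled transcripts. The libraries kept strand, but the sources used here do not give the strand setting of the counting. Tomm40l measured 18.35, 7.46 and 46.28 FPKM in PF, 24.32, 15.39 and 71.85 FPKM in AF, and 71.50, 10.59 and 33.40 FPKM in AF with MNA. Tomm40l thus ranged 9.63-fold, and AF replicate 3 was the highest library for both genes. AF with MNA replicate 2, the second highest library for Nr1i3, was the second lowest for Tomm40l. Pearson's r between the pair was 0.25 over the 9 libraries, which share their groups and overlapping sequence, and how reads of the overlap were divided was not tested.

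The partners of CAR varied less. Rxra, the main RXR of liver, measured 29.10, 23.31 and 28.08 FPKM in PF, 27.28, 19.52 and 23.84 FPKM in AF, and 24.32, 23.98 and 27.09 FPKM in AF with MNA. The groups overlapped throughout, the log2 ratios were -0.19 (AF against PF), 0.09 (AF with MNA against AF) and -0.09 (AF with MNA against PF), and the highest library was 1.49-fold above the lowest. Rxrb, the widely expressed second RXR, measured 4.27, 4.74 and 3.83 FPKM in PF, 4.87, 2.18 and 4.56 FPKM in AF, and 3.37, 5.62 and 3.21 FPKM in AF with MNA. AF replicate 2 was lowest and AF with MNA replicate 2 highest, so each treated group spanned the PF libraries. Rxrg, the RXR gene known mainly from muscle and brain, was singled out after its values were seen: its means were 0.720 FPKM in PF, 0.730 in AF and 1.36 in AF with MNA, and its adjusted p for AF with MNA was 0.202 against PF and 0.940 against AF.

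Pparg encodes the receptor that drives fat storage genes. Pparg measured 1.55, 1.08 and 1.22 FPKM in PF, 1.88, 1.76 and 1.60 FPKM in AF, and 2.04, 1.80 and 1.58 FPKM in AF with MNA. Every library of both alcohol groups was above every PF library, though the highest PF value (1.55 FPKM) lay close to the lowest of the others (1.58 FPKM). The log2 ratio was 0.44 in AF against PF (limma difference 0.27, standard error 0.13, adjusted p = 0.473) and 0.49 in AF with MNA against PF (difference 0.30, standard error 0.12, unadjusted p = 0.0451, adjusted p = 0.335). The adipocyte marker Adipoq was at 0 in 7 of 9 libraries and reached 0.03 FPKM, and Plin1 was at 0 in 5 and reached 0.05 FPKM. The summed endothelial markers, like Pparg, had every PF library below every other library, though PF replicate 3 (28.46 FPKM) lay close to AF replicate 2 (28.9 FPKM). Of the 6 single endothelial markers, 1 did not overlap in AF against PF (beside 18.3% of all genes). In AF with MNA against PF 3 did not overlap (beside 21.4%). The summed Kupffer cell markers (6 of 6 found, none at 0) overlapped between the groups, with 57.4 to 70.1 FPKM in PF, 45.3 to 84.9 in AF and 57.6 to 76.2 in AF with MNA, though 1 of them, the scavenger receptor Marco, passed the threshold of the methods in both comparisons with PF (means 0.803, 1.91 and 2.39 FPKM in PF, AF and AF with MNA, adjusted p = 0.366 and 0.152). The part of these cells in the Pparg values was not tested.

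Ppard encodes the broadly expressed PPAR of fatty acid oxidation. Ppard measured 1.29, 0.91 and 0.81 FPKM in PF, 1.13, 0.62 and 0.94 FPKM in AF, and 1.75, 1.71 and 0.89 FPKM in AF with MNA. The pair of highest libraries had received MNA, but AF with MNA replicate 3 lay within both other groups. The log2 ratio was -0.16 in AF against PF, 0.69 in AF with MNA against AF (unadjusted p = 0.110, adjusted p = 0.953) and 0.53 in AF with MNA against PF.

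Nr1h2 encodes LXR beta, a sensor of oxysterols. Nr1h2 measured 6.55, 5.15 and 5.58 FPKM in PF, 6.99, 6.68 and 6.14 FPKM in AF, and 6.41, 7.22 and 6.37 FPKM in AF with MNA. PF replicate 1 lay inside the range of both other groups, and the log2 ratios to PF were 0.20 for AF and 0.21 for AF with MNA. Its range over 9 libraries, 1.40-fold, was the second narrowest of the 9.

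Nr5a2 encodes LRH-1, a regulator of bile acid and cholesterol genes. Nr5a2 measured 4.43, 4.82 and 4.45 FPKM in PF, 3.72, 2.28 and 5.4 FPKM in AF, and 4.55, 3.85 and 4.0 FPKM in AF with MNA. AF replicate 2 was lowest and AF replicate 3 highest of all 9, so that the AF group enclosed both others, and its SD was 1.56 FPKM against 0.22 in PF. The log2 ratio of AF to PF was -0.27 (adjusted p = 0.716).

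Esrra encodes ERR alpha, a regulator of mitochondrial genes without a known hormone. Esrra measured 7.5, 9.38 and 9.23 FPKM in PF, 7.89, 7.52 and 9.44 FPKM in AF, and 7.87, 9.98 and 9.01 FPKM in AF with MNA. The groups overlapped, the range was the narrowest of the 9 at 1.33-fold, and the log2 ratios were -0.07, 0.11 and 0.04 in the 3 comparisons. Its gene overlaps Trmt112 on the other strand by 73 bases.

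Esr1 encodes estrogen receptor alpha, the main estrogen receptor of hepatocytes. Esr1 measured 1.39, 1.37 and 1.14 FPKM in PF, 2.21, 3.05 and 2.19 FPKM in AF, and 3.32, 2.00 and 1.62 FPKM in AF with MNA. All 6 libraries of the alcohol groups were above the 3 PF libraries. The mean was 1.3 ± 0.139 (SD, n = 3) in PF, 2.48 ± 0.491 (SD, n = 3) in AF and 2.31 ± 0.892 (SD, n = 3) in AF with MNA. In AF against PF the log2 ratio was 0.93 and the limma difference 0.59 with a standard error of 0.14 (unadjusted p = 0.00459, adjusted p = 0.201), the lowest p of the 9 genes. Its log2 ratio in AF with MNA against PF was 0.83 and the difference 0.50 with a standard error of 0.20 (unadjusted p = 0.0431, adjusted p = 0.333). The summed endothelial markers also had every PF library below every other library, but AF replicate 2, with the second highest Esr1, had the lowest sum of the 6 treated libraries (28.9 FPKM), and their part was not tested.

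The other nuclear receptors showed no call either. Of 34 family members tested in AF against PF (the 9 genes included), 0 were called and 0 passed the threshold of the methods, and 2 were higher and 1 lower at an unadjusted p under 0.05 (3 of 34 beside 11.7% of all genes), while 4 did not overlap between the groups (beside 18.3%). For AF with MNA against AF, 0 of 34 were called and 0 passed the threshold, 3 were higher and 0 lower at an unadjusted p under 0.05 (beside 5.21%), and 6 did not overlap between the groups (beside 10.1%). For AF with MNA against PF, 0 of 33 were called and 1, Nr1i3, passed the threshold, with 7 higher and 1 lower at an unadjusted p under 0.05 (8 of 33 beside 14.5%) and 10 not overlapping (beside 21.4%). The family's median log2 ratio was -0.10 in AF against PF, 0.19 in AF with MNA against AF and 0.18 in AF with MNA against PF. Nr1i2, the pregnane X receptor that shares many targets with CAR, was looked up for that role and had means of 6.81 ± 1.92 FPKM (SD, n = 3) in PF, 6.09 ± 0.595 in AF and 6.81 ± 0.728 in AF with MNA.

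Many listed target genes of CAR were upregulated in both alcohol groups, while the Nr1i3 transcript itself was not called. Of 26 listed genes 24 were found and 23 tested. In AF as compared to PF 9 of 23 were upregulated and 0 downregulated by limma's adjusted p (beside 0.326% of all genes), and 16 passed the threshold of the methods, all upward (beside 4.29%). With a library-size covariate, in a linear model without limma's sharing of spread among genes, 0 were called, while 16 still passed that threshold. Both changes were made together, so the loss of calls cannot be assigned to either. Their median log2 ratio was 1.79, beside -0.03 for all genes tested. As compared to PF, AF with MNA had 12 upregulated and 0 downregulated (beside 0.423% called) and 16 past the threshold (beside 3.88%), with a median log2 ratio of 1.75. With the covariate again 0 were called and 16 passed the threshold. As compared to AF, 0 were called, 0 had an unadjusted p under 0.05 and the median was -0.04. Cyp2b13, Cyp2b9, Cyp2c55 and Gadd45b had PF means of 0.00333, 0.06, 0.26 and 0.313 FPKM, under the limit of 0.5 FPKM. They entered the comparisons with PF only through the alcohol libraries and could only come out higher. All of them are among the genes past the threshold in both comparisons. Cyp2b13 and Cyp2c55 are among those called in AF, and Cyp2b9 as well in AF with MNA. The members and this list were chosen with earlier results of these libraries known, in which part of these cytochromes already stood out, so the list is no independent evidence of direction.

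Cyp2b10, the classical CAR target that oxidizes barbiturates, measured 0.28, 0.22 and 3.33 FPKM in PF, 259.56, 194.66 and 132.88 FPKM in AF, and 182.75, 121.82 and 103.45 FPKM in AF with MNA. PF replicate 3 stood above the other PF libraries, yet the groups did not overlap. The log2 ratio of AF to PF was 7.26 (adjusted p = 0.00730), and PF replicate 3 set its size, since without that library it was 9.61. AF replicates 1 and 2, whose Nr1i3 values lay within the PF range, had the highest and second highest Cyp2b10, and AF replicate 3, with the highest Nr1i3, had the lowest Cyp2b10 of its group.

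**Figure D4:**
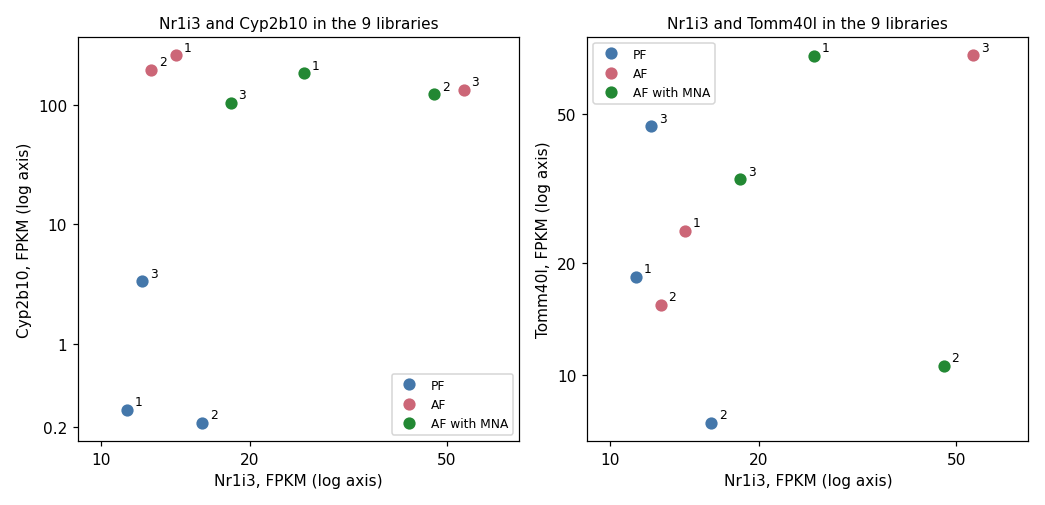
FPKM of Cyp2b10 (left) and of Tomm40l (right) against FPKM of Nr1i3 in the 9 libraries, all axes logarithmic, with the replicate number beside each point. On the left the 3 PF libraries lie far below the other 6, and AF replicates 1 and 2 share their Nr1i3 range, and on the right AF with MNA replicate 2 is high for Nr1i3 and low for Tomm40l.

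Cyp2a5, which clears nicotine and coumarin, was upregulated in AF, from 168 ± 18.9 to 1350 ± 59.0 FPKM (SD, n = 3 each; log2 ratio 3.01, adjusted p = 0.00215). Gsta2, a glutathione transferase, rose from 1.70 ± 0.393 to 26.4 ± 7.76 FPKM (SD, n = 3 each; adjusted p = 0.00515). Cyp2c29 rose from 49.6 ± 15.9 to 463 ± 23.6 FPKM and Cyp2c54 from 68.3 ± 3.83 to 243 ± 22.8 FPKM (SD, n = 3 each; adjusted p = 0.00730 for both). Cyp2b13 was at 0.00, 0.01 and 0.00 FPKM in PF, at 4.77, 5.48 and 7.36 FPKM in AF, and at 25.53, 6.01 and 11.63 FPKM in AF with MNA (adjusted p = 0.00263 in AF against PF). Cyp2b13 passed the limit of 0.5 FPKM only through the AF libraries, so it could only come out higher in that test. No fold is given for a gene listed at 0. The cytochrome P450 and glutathione transferase genes have near-identical copies, so reads may be split among Cyp2a4 and Cyp2a5, among the Cyp2b genes and among the Cyp2c genes, and their single values are uncertain to that extent.

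The list was not uniform, and the pair with negative values is named here after they were seen. Alas1, the first enzyme of heme synthesis, had a log2 ratio of -0.28 (adjusted p = 0.816), and Aldh1a7 of -0.06. The number called in AF against PF was 8 without AF replicate 3, and in AF with MNA against PF it was 10 without AF with MNA replicate 1. The latter number was 3 without AF with MNA replicate 3, 7 without AF with MNA replicate 2, and 5, 7 and 6 without PF replicates 1, 2 and 3, whereas the number past the threshold of the methods stayed at 16 or 17 in each.

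**Figure D5:**
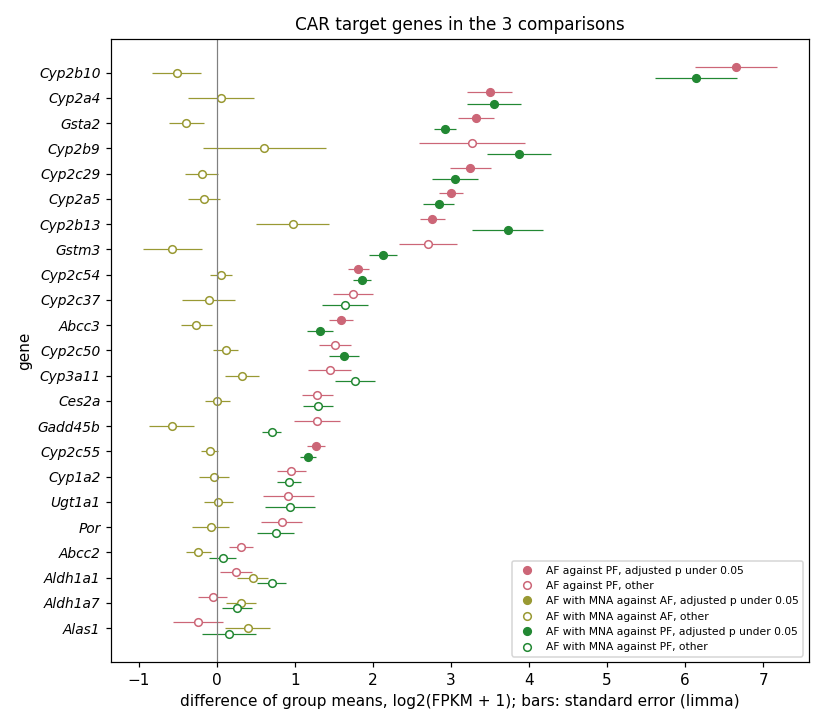
Difference of group means on the log2(FPKM + 1) scale with its standard error (limma, 3 libraries per group) for the 23 tested CAR target genes; filled points have an adjusted p under 0.05. Most points of both comparisons with PF lie to the right of 0, with Cyp2b10 farthest, and no point of AF with MNA against AF is filled.

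The proteins that hold CAR in the cytosol or relay its release were described by 7 tested genes, of which 0 were called, with 3 lower at an unadjusted limma p under 0.05 in AF against PF (beside 11.7% of all genes) and a median log2 ratio of -0.35 (beside -0.03). Hsp90aa1, the inducible cytosolic HSP90 chaperone, measured 38.54, 31.84 and 27.62 FPKM in PF, 12.05, 16.81 and 15.13 FPKM in AF, and 12.21, 36.69 and 29.66 FPKM in AF with MNA. Every AF library was below every PF library, and AF with MNA had 1 library within the AF range and 2 within the PF range. In AF against PF it passed the threshold of the methods (unadjusted p = 0.000662, adjusted p = 0.09996). Egfr, whose signal keeps CAR phosphorylated and inactive, passed that threshold downward in AF with MNA against PF, from 22.4 ± 1.58 to 10.7 ± 3.82 FPKM (SD, n = 3 each; adjusted p = 0.188). Of 8 coactivator and 9 corepressor genes tested, 0 were called and 0 passed the threshold in the 3 comparisons. Their median log2 ratios in AF against PF were 0.01 and -0.07, and at an unadjusted limma p under 0.05 there were 2 of 8 coactivators higher and 1 of 9 corepressors lower (beside 11.7%).

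Among the listed targets of the other receptors 2 were called, both shared by PPAR alpha and PPAR delta and both in AF with MNA against PF. Neither call remained in the model with the library-size covariate and without limma's sharing of spread. Of 12 listed PPAR gamma targets 10 were found and 6 tested, and the rest of those found fell below the mean of 0.5 FPKM. None of the 6 was called, and in AF against PF 2 were higher and 1 lower at an unadjusted limma p under 0.05 (beside 11.7%). The threshold was passed upward by 4 of 6 in AF with MNA against PF (beside 3.88% of all genes; median log2 ratio 1.06): the fatty acid transporter Cd36 (5.28 ± 1.38 to 13.4 ± 1.56 FPKM, adjusted p = 0.0907), the lipase inhibitor G0s2, the fatty acid carrier Fabp4 and the lipid droplet gene Cidec. In AF against PF only Fabp4 did so, from 0.430 ± 0.0656 to 0.993 ± 0.0306 FPKM (SD, n = 3 each). Fabp4 and Cidec (0.453 FPKM in PF) had PF means under 0.5 FPKM. They entered the tests only through the treated libraries and could only come out higher, so the shares rest in part on this filter.

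Of 12 targets listed for PPAR alpha and PPAR delta, which many lipid genes share, 2 were upregulated and 0 downregulated in AF with MNA against PF (beside 0.423% of all genes), with a median log2 ratio of 1.22 (beside -0.02). Acot1, an acyl-CoA thioesterase whose entry also holds Acot2, rose from 4.34 ± 1.06 to 23.5 ± 3.32 FPKM (SD, n = 3 each; adjusted p = 0.0171). Cyp4a14, a fatty acid hydroxylase, rose from 45.8 ± 16.8 to 263 ± 52.7 FPKM (SD, n = 3 each; adjusted p = 0.0395). Pdk4, Ehhadh and Cyp4a10 passed the threshold of the methods without a call, which made 5 of 12 past it (beside 3.88%). Pdk4 had a PF mean of 0.303 FPKM, under the limit of 0.5 FPKM, so it entered the test only through the treated libraries. With the library-size covariate and without limma's sharing of spread 0 were called and 4 passed the threshold. The adjusted p in that model was 0.372 for Acot1 and 0.425 for Cyp4a14. With 1 library left out, Acot1 was no longer called without AF with MNA replicate 2 (adjusted p = 0.0509) or 3 (adjusted p = 0.0598), and Cyp4a14 stayed called only without PF replicate 1 (adjusted p = 0.0453, and 0.0564 to 0.126 without each of the others). Against AF, 0 of 12 were called in AF with MNA, 2 were higher and 0 lower at an unadjusted limma p under 0.05 (beside 5.21%), and 5 did not overlap between the groups (beside 10.1%). Acot1 alone passed the threshold there, from 9.63 ± 7.03 to 23.5 ± 3.32 FPKM (SD, n = 3 each; log2 ratio 1.29, unadjusted p = 0.0289, adjusted p = 0.940). The number past it was 0 without AF replicate 1 or 3, AF with MNA replicate 2 or 3 or with the covariate, and 4 without AF replicate 2. In AF against PF 0 of 12 were called, 1 (Cyp4a14) passed that threshold (beside 4.29%), and at an unadjusted limma p under 0.05 there were 1 higher and 1 lower (beside 11.7%). The number past it was 0 with the covariate, 2 without PF replicate 2 or AF replicate 2, and 4 without AF replicate 1.

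Among 11 LXR targets and 7 LRH-1 targets 0 were called in any comparison. Both lists had a median log2 ratio of -0.12 in AF against PF, with 1 LXR target higher and 2 lower, and 1 LRH-1 target higher and 1 lower, at an unadjusted limma p under 0.05 (beside 11.7%). The LRH-1 pair, Abcg8 and Cyp7a1, belongs to both lists, so these counts rest in part on the same genes. Cyp7a1, the rate-limiting enzyme of bile acid synthesis, measured 24.53, 65.85 and 25.96 FPKM in PF, 10.09, 1.13 and 4.94 FPKM in AF, and 15.31, 8.26 and 3.57 FPKM in AF with MNA. All 6 treated libraries were below the 3 PF libraries, and it passed the threshold of the methods downward in both comparisons with PF (adjusted p = 0.199 in AF against PF). Of 14 ERR alpha targets 0 were called, 0 in AF against PF and 3 (all higher) in AF with MNA against PF had an unadjusted limma p under 0.05 (beside 11.7% and 14.5%), and Pdk4 alone passed the threshold in AF with MNA against PF. Of 3 tested estrogen receptor targets 0 were called, with 1 higher and 1 lower at an unadjusted limma p under 0.05 in AF against PF (beside 11.7%). Xbp1, a regulator of the unfolded protein response, passed it downward in AF with MNA against PF, from 23.4 ± 3.28 to 9.87 ± 4.80 FPKM (SD, n = 3 each).

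The entries whose levels most resembled those of each receptor were ranked by Pearson's r of log2(FPKM + 1) over the 9 libraries among 3609 entries with a mean of at least 5 FPKM, as a description over libraries that share their groups. For Nr1i3 they were Map2k2 (0.92), Baz1b (0.91) and Herc2 (0.89), and none of these was among the listed CAR targets. For Rxra they were Sec14l2 (0.97), Rbpms2 (0.96) and Gm27373 (0.93), and for Rxrb Gemin7 (0.95), Dvl1 (0.91) and Tbx3 (0.91). Pparg came with Cpq (0.95), Adgre5 (0.94) and Man2b2 (0.92), and Ppard with F12 (0.94), Eif3h (0.91) and Rpl11 (0.88). Nr1h2 came with Nucb1 (0.92), H2-D1 (0.91) and P4hb (0.91), and Nr5a2 with Angptl8 (0.97), Gm37758 (0.95) and RP24-496C8.8 (0.95). Esrra came with Cyc1 (0.85), Cdc42bpb (0.84) and Atp5c1 (0.83), among which Cyc1 and Atp5c1 serve oxidative phosphorylation, and Esr1 with Tm9sf2 (0.95), Ctsl (0.92) and Atad1 (0.88).

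Circular RNAs of these genes were scarce. Of 4486 circRNAs 6 came from 3 of the 9 genes, with 22 of 17959 junction reads. Those of Rxra had 11 reads, with 5 in PF replicate 1, 1 in PF replicate 3 and 5 in AF with MNA replicate 1. Those of Nr5a2 had 8 reads and those of Esr1 had 3, all 3 of them in AF replicate 2. A count of 0 in a library allows up to 3 reads by counting error alone, and no comparison between groups was run on these counts.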

How the data were processed

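The authors trimmed, aligned and assembled the reads and deposited gene levels in FPKM (rounded to 2 decimals), lncRNA levels in FPKM with read coverage, and circRNA junction read counts with a normalized signal. The submitters' processing notes name cutadapt 1.9, FastQC, HISAT2, StringTie 1.3.4, edgeR and TopHat, and the genome build is not given in the sources used here. The 9 receptors, the gene lists and the comparisons were chosen with earlier results of these data known. Known gene entries whose FPKM averaged 0.5 or more in a comparison's 6 libraries entered limma 3.58.1 in R 4.3.3 (two-sided, moderated with an intensity trend) on log2(FPKM + 1), with Benjamini-Hochberg adjustment over all entries tested, and the fit was tested on simulated data. Log2 ratios compare mean FPKMs. The linear model with a library-size covariate used an ordinary t statistic, without limma's moderation. Its covariate was, for each library, the sum of the log2(FPKM + 1) values below their upper quartile. Total reads were recovered from the constant between circRNA counts and their signal, taking a read length of 150. No gene counts were used here, so precision was judged from the spread between libraries. Named were all 9 genes, other receptors and up to 6 members per list that passed either call, and the 3 entries most like each gene. Some other genes, such as Alas1, Aldh1a7, Abcg8, Rxrg and Nr1i2, are named outside this rule. The replicate numbers of the groups were checked and did not pair the libraries. Sequences came from GENCODE M21 transcripts and the RefSeq promoter table. Python 3.11.15, numpy 2.4.6, pandas 2.3.3 and matplotlib 3.10.9 were used.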

Additional observations from a re-analysis of the deposited data

Results flagged for a closer look

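Entries made only of assembled transcripts carry the names of 3 of the receptors, and 5 of these 6 entries were higher in some treated library than in any PF library. More libraries were treated than pair-fed, so a highest value in a treated library is the likelier outcome without any difference. The share over all assembled entries was not counted, so this count is not read as a result. These entries were part of no comparison. An entry under Ppard reached 1.71 FPKM beside a highest PF value of 1.70, and 1 under Rxrb reached 1.55 FPKM, with 0 in each PF library and in 2 other libraries. Of 3 entries under Pparg, 1 reached 1.91 FPKM (AF replicate 3), 1 reached 1.57 FPKM (AF replicate 2) and 1 reached 1.62 FPKM (AF with MNA replicate 1, at 0 in the other 8). The first and the last of these lie in introns of Pparg. AF replicate 3 and AF with MNA replicate 1 are the libraries with the highest intron signal, whose part in these values was not tested.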

How the results depend on the processing

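None of the 9 receptors was called under any alternative tried or with any library left out, and the log2 ratio of a receptor changed sign in 23 of 370 repeats. Of these, 21 came with 1 library left out. Nr1h2 in AF with MNA against AF was -0.00267 with libraries scaled to the same median, and the difference of Esrra in AF with MNA against PF was -0.0858 in the linear model with a library-size covariate. With 1 library left out, values ranged in AF against PF from -0.363 to 0.0602 for Ppard and from -0.34 to 0.14 for Rxrb. Against AF, those of AF with MNA ranged from -0.29 to 1.18 for Nr1i3, from -0.0245 to 0.213 for Rxra, from -0.23 to 0.27 for Rxrb, from -0.0476 to 0.137 for Pparg, from -0.0474 to 0.0566 for Nr1h2, from -0.14 to 0.46 for Nr5a2 and from -0.46 to 0.10 for Esr1. Against PF they ranged from -0.0556 to 0.126 for Esrra and from -0.380 to 0.0707 for Rxrb. Receptors past the threshold of the methods numbered 0 to 1, 0 to 1 and 0 to 2 in the 3 comparisons with 1 library left out, and 0 in AF with MNA against PF with all 9 libraries in the fit or with the covariate.

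Genes called in AF against PF (40) numbered 24 with every gene above 0, 86 with all 9 libraries in the fit, 0 with the covariate and 25 to 47 with 1 library left out, and those past the threshold (527) numbered 1183 with every gene above 0, 265 at a mean of at least 2 FPKM and 336 with the covariate. Genes called in AF with MNA against AF (6) numbered 2 with every gene above 0, 2 at 2 FPKM, 0 with all 9 libraries, 1 with the covariate and 6 to 13 with 1 left out, and those past the threshold (242) numbered 676, 81 and 105 under the first, the second and the covariate setting and 211 to 367 with 1 left out. Those called in AF with MNA against PF (52) numbered 22 with every gene above 0, 0 with the covariate and 24 to 47 with 1 left out, and those past the threshold (477) numbered 1105, 228 and 244 under the same settings. The counts over CAR targets and over PPAR alpha and PPAR delta targets and the Cyp2b10 ratio without PF replicate 3 were added to these alternatives after the data were seen. With the covariate 0 were called in both comparisons with PF, while 16 stayed past the threshold in each. Against PF, 5 were called in AF with MNA with every gene above 0 and 3 to 10 with 1 library left out. Against AF, 1 passed the threshold with all 9 libraries, 1 with the covariate and 0 to 2 with 1 left out. PPAR alpha and PPAR delta targets called in AF with MNA against PF (2) numbered 3 with a pseudocount of 0.1 (Pdk4 added, adjusted p = 0.0331), 1 with every gene above 0, 1 with all 9 libraries, 0 with the covariate and 0 to 3 with 1 left out. Those past the threshold in AF against PF (1) numbered 2 with a pseudocount of 0.1, 0 with the covariate and 1 to 4 with 1 left out, and in AF with MNA against AF (1) they numbered 0 with the covariate and 0 to 4 with 1 left out. The cause of these changes was not tested.

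With the replicate number as a replicate block, genes called numbered 18, 1 and 0 in the 3 comparisons, and CAR targets called 5 in AF against PF and 0 in AF with MNA against PF, with 16 past the threshold in both. PPAR alpha and PPAR delta targets called in AF with MNA against PF numbered 0 with the block, with 5 past the threshold. Same-numbered libraries did not deviate together (r from -0.0801 to 0.0615), so that they share only a number. No call of a receptor depended on the block.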
